A study of Mus musculus with 6 samples.

Results

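The 8 troponin genes of the mouse, Tnnt1, Tnnt2, Tnnt3, Tnni1, Tnni2, Tnni3, Tnnc1 and Tnnc2, were followed in RNA-seq read counts from heart cell cultures treated to silence the splicing factor gene Rbm22. They were taken by gene symbol after the Ensembl identifiers of the count table had been matched to GENCODE M21, and they make up 8 of its 18951 rows. Cultures that received an siRNA against Rbm22 (si-Rbm22, 3 libraries) were set against cultures given a scrambled siRNA (si-Control, 3 libraries). Per the labels, cells of both groups came from hearts of C57BL/6 mice 1 day after birth and were kept overnight in medium with serum, and only preparations in which more than 97.5% of cells stained for cardiac troponin T were used. They were collected 48 h after transfection. The protocol writes the strain as C57BL/6J. The 3 libraries of a group are called biological replicates without word on whether they were isolated separately, so the p-values reflect spread among cultures that may share a preparation.

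Troponin is the calcium switch of striated muscle and lies on the thin filament with actin and tropomyosin. Troponin C binds calcium, troponin I blocks contraction while calcium is low, and troponin T anchors the complex to tropomyosin. Heart muscle uses Tnnt2, Tnni3 and Tnnc1, slow skeletal fibres use Tnnt1, Tnni1 and Tnnc1, fast skeletal fibres use Tnnt3, Tnni2 and Tnnc2, and the newborn heart still carries Tnni1 beside Tnni3.

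Library totals lay between 34269042 and 37344860 reads. Rbm22 had 533, 466 and 491 reads in the si-Rbm22 libraries, against 798, 916 and 774 in the si-Control-labelled libraries (edgeR log2 fold change −0.78 ± 0.097 SE, adjusted p = 4.22e-06). The si-Control-labelled libraries go against their label as cardiomyocytes, which touches every troponin value below. By edgeR, 43.1% of all tested genes were higher in the si-Rbm22 libraries, 38.9% were lower and 82% passed in either direction. All 12 cardiomyocyte markers examined were higher in si-Rbm22. Their summed level was 22158 to 35458 CPM in si-Rbm22 and 69.1 to 83.0 CPM in the si-Control-labelled libraries (CPM, counts relative to the TMM-scaled library total), where Mybpc3, Myl2, Myl3, Myl7, Pln and Nppa had no reads. Of 16 markers of skeletal muscle and its precursors 14 were tested, of which 12 were lower and 2, Ckm and Myh8, higher. Their median log2 fold change was −10.10. The summed level was 139 to 229 CPM in si-Rbm22 and 657 to 673 CPM in the si-Control-labelled libraries. Nearly all of the si-Rbm22 sum was Ckm, with 225, 208 and 136 CPM in replicates 1, 2 and 3, where the sums were 229, 213 and 139 CPM. Here Myod1, Myf5, Cdh15, Chrnd and Cacng1 had no reads in si-Rbm22. Endothelial markers summed to 273 to 322 CPM in si-Rbm22 and 1.61 to 1.93 CPM in the si-Control-labelled libraries, and all 7 were higher. Epicardial markers summed to 2077 to 2267 CPM in si-Rbm22 and 50.2 to 53.7 CPM in the si-Control-labelled libraries, and macrophage markers to 117 to 151 CPM in si-Rbm22 and 5.49 to 7.36 CPM in the si-Control-labelled libraries, and all 7 of each were higher. Fibroblast markers summed to 9470 to 9570 CPM in si-Rbm22 and 31267 to 34242 CPM in the si-Control-labelled libraries (2 higher and 6 lower of 9), and smooth muscle markers to 2185 to 2689 CPM in si-Rbm22 and 2794 to 2880 CPM in the si-Control-labelled libraries (5 higher and 2 lower of 7). Their part in the troponin results was not tested, and leaving out the doubted libraries was not possible, since they are all 3 of their group. The siRNA and these marker differences follow the same groups, so their parts cannot be told apart. Words such as rose and fell only give the direction of si-Rbm22 over the si-Control-labelled libraries. In bulk RNA, fewer cells of a type and less RNA per cell cannot be told apart.

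The troponin genes of heart and slow muscle, Tnnt1 excepted, were higher in the si-Rbm22 libraries, and those of fast muscle were lower. Tnnt2, Tnni1, Tnni3 and Tnnc1 were 17.2-fold to 1587-fold higher, and Tnnt3, Tnni2 and Tnnc2 were 5.44-fold to 53.4-fold lower. Tnnt1, of slow skeletal fibres, did not pass the test. By edgeR's quasi-likelihood test over 14621 genes, 4 of the 8 genes were higher, where 43.1% of all tested genes were, and 3 were lower, where 38.9% of all tested genes were. In all, 7 of 8 passed in either direction, against 82% of all tested genes. In 7 of the 8 the libraries of the groups did not overlap, as in 84.2% of all tested genes. These counts are thus near what the whole table gives, and what sets the members apart from each other is direction and size. Tnnc2 passed the filter on low counts only through the si-Control-labelled libraries, and the other members had enough reads in both groups.

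**Figure D1:**
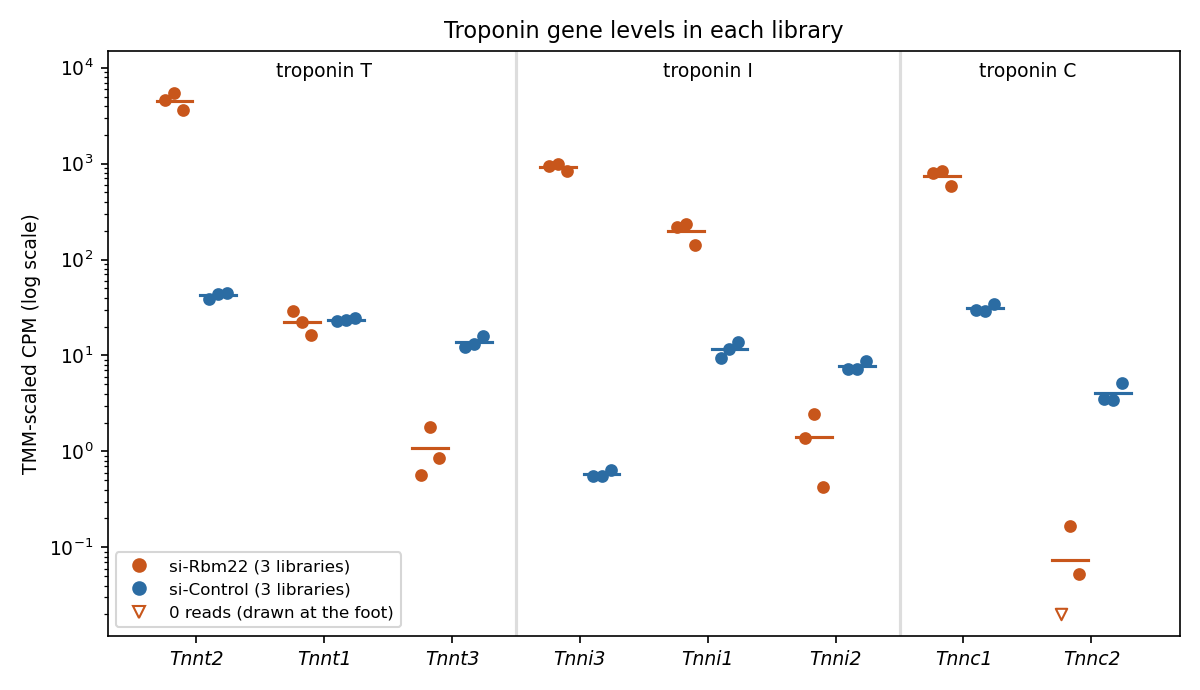
TMM-scaled CPM on a log axis for each of the 8 troponin genes, grouped by subunit; points are libraries (si-Rbm22 orange, si-Control blue), lines are means of 3 libraries, and the open triangle marks a library with 0 reads. Tnnt2, Tnni3, Tnni1 and Tnnc1 lie higher in si-Rbm22, Tnnt3, Tnni2 and Tnnc2 lie lower, and the Tnnt1 points of both groups overlap.

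Promoter sequence is shown for the 4 genes that were higher, because they moved in the same direction from 3 separate loci. The sequences are RefSeq windows on GRCm38.p6, which were found for 6 of the 8 genes. Tnnt3 and Tnni2 had no window. Each is given 5′ to 3′ on the strand of its gene, ends at or before the RefSeq start, and leaves out bases that GENCODE M21 annotates as exon. Capitals mark matches to the M-CAT element, the GATA motif or the MEF2 core. Tnnt2 is chr1:135836084-135836333 (plus strand), Tnni1 is chr1:135799171-135799401 (plus), Tnni3 is chr7:4522529-4522694 (minus) and Tnnc1 is chr14:31208062-31208311 (plus). The stretches of Tnni1 and Tnni3 lie inside the GENCODE spans of their genes, between annotated exons.
Tnnt2: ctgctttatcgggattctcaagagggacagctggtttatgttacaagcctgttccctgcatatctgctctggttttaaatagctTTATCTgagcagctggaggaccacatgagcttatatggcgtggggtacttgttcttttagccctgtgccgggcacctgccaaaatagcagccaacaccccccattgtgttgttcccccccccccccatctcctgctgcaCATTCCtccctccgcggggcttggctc
Tnni1: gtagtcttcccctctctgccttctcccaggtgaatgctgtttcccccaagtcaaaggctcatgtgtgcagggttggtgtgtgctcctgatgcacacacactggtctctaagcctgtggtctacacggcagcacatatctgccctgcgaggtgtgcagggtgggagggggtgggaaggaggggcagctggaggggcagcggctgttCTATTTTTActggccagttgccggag
Tnni3: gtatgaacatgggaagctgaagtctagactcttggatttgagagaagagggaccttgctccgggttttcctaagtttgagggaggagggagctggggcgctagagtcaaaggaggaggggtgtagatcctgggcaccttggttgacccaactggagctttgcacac
Tnnc1: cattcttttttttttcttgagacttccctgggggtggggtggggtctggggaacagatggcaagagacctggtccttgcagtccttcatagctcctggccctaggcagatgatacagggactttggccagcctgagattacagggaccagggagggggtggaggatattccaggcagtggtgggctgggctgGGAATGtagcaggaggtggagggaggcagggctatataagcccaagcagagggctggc

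Both strands of the 250 bases before the start were searched, and for Tnnt2 and Tnni1, which have a further RefSeq start, positions refer to the start used above. The M-CAT element, bound by TEAD factors and known from the chicken cardiac troponin T promoter, was taken as CATTCC. The GATA motif was taken as AGATAA. The MEF2 core was taken as CTATTTTTA and the TATA box as TATAAA. The E-box, which myogenic factors bind, was taken as CANNTG. No match overlapped another. M-CAT letters stood 27 to 22 bases before the Tnnt2 start and, on the reverse strand as GGAATG, 58 to 53 bases before the Tnnc1 start. Of 32817 windows of this length, 12.64% held them. A GATA match, TTATCT on the reverse strand, lay 166 to 161 bases before the Tnnt2 start (9.992% of all windows). The MEF2 core of Tnni1, 45 to 37 bases before its start, is the least common of these letters, at 0.454% of all windows. Tnni3 held 1 E-box and none of the other letters, while Tnnt2 and Tnni1 held 4 E-boxes each and Tnnc1 held 2 (66.22% of all windows held at least 1). Of the genes that were not higher, Tnnt1 had TATAAA 30 to 25 bases before its start (12.37% of all windows) with 1 E-box, and Tnnc2 had 2 E-boxes only. A match is a description of letters and not a bound site.

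Among the troponin T genes, Tnnt2, the heart form (ENSMUSG00000026414; GRCm38 chromosome 1, 135836354 to 135852260, 15 introns, plus strand), had the most reads. Tnnt2 had 167568, 194812 and 135099 reads in the si-Rbm22 libraries, against 1413, 1568 and 1542 in the si-Control-labelled libraries. Every si-Rbm22 library was far above every si-Control-labelled library. This came to 4529 ± 908 CPM in si-Rbm22 and 42.2 ± 2.85 CPM in the si-Control-labelled libraries (SD, n = 3 each), or 107-fold higher (edgeR log2 fold change 6.75 ± 0.172 SE, adjusted p = 1.17e-09). Tnnt3, the fast skeletal form (ENSMUSG00000061723; chromosome 7, 142498836 to 142516009, 17 introns, plus strand), ran the other way, with 21, 65 and 32 reads in si-Rbm22, against 441, 477 and 548 in the si-Control-labelled libraries. Its groups did not overlap either, and replicate 2 was the highest of the si-Rbm22 libraries. Tnnt3 averaged 1.08 ± 0.646 CPM in si-Rbm22 and 13.7 ± 1.87 CPM in the si-Control-labelled libraries (SD, n = 3 each; edgeR log2 fold change −3.67 ± 0.303 SE, adjusted p = 5.76e-07). Without si-Rbm22 replicate 2 its log2 fold change was −4.26.

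Tnnt1, the slow skeletal form (ENSMUSG00000064179; chromosome 7, 4504570 to 4516382, 13 introns, minus strand), had 1059, 794 and 616 reads in the si-Rbm22 libraries, against 836, 841 and 852 in the si-Control-labelled libraries. Replicate 1 of si-Rbm22 was above all si-Control-labelled libraries, and the other replicates were below them. The mean was 22.5 ± 6.26 CPM in si-Rbm22 and 23.6 ± 0.825 CPM in the si-Control-labelled libraries (SD, n = 3 each), and the difference did not pass (edgeR log2 fold change −0.07 ± 0.171 SE, adjusted p = 0.708). The call rests on single libraries: without si-Rbm22 replicate 1 the log2 fold change was −0.31 and passed (edgeR adjusted p = 0.0322), and without si-Rbm22 replicate 3 it was 0.10. The si-Rbm22 libraries of Tnnt1 thus spread on both sides of the other group.

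Among the troponin I genes, Tnni3, the adult heart form (ENSMUSG00000035458; chromosome 7, 4518305 to 4524229, 7 introns, minus strand), had the largest fold of all 8 genes. It had 34327, 36037 and 31208 reads in the si-Rbm22 libraries, against 20, 20 and 22 in the si-Control-labelled libraries. The groups were far apart, and each was tight, with coefficients of variation of 9.30% in si-Rbm22 and 8.21% in the si-Control-labelled libraries. Tnni3 averaged 923 ± 85.9 CPM in si-Rbm22 and 0.579 ± 0.0475 CPM in the si-Control-labelled libraries (SD, n = 3 each; edgeR log2 fold change 10.63 ± 0.120 SE, adjusted p = 1.43e-16). That SE is smaller than counting error alone, and the ratio of summed scaled reads was 1595, with a 95% counting interval of 1244 to 2080. A stretch of 86 exon bases of Tnni3 (4.17%) is also annotated to Dnaaf3 on the same strand, a gene with 31 to 72 reads per library.

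Tnni1, the slow skeletal form that the newborn heart shares (ENSMUSG00000026418; chromosome 1, 135779434 to 135810989, 8 introns, plus strand), had 7909, 8530 and 5370 reads in the si-Rbm22 libraries, against 345, 419 and 474 in the si-Control-labelled libraries. No library of a group reached into the other group. Its level was 199 ± 49.3 CPM in si-Rbm22 and 11.6 ± 2.07 CPM in the si-Control-labelled libraries (SD, n = 3 each), 17.2-fold higher (edgeR log2 fold change 4.10 ± 0.249 SE, adjusted p = 8.26e-06). Tnni2, the fast skeletal form (ENSMUSG00000031097; chromosome 7, 142441808 to 142444410, 6 introns, plus strand), had 51, 88 and 16 reads in si-Rbm22, against 262, 260 and 304 in the si-Control-labelled libraries. The si-Rbm22 libraries were all lower but differed widely among themselves, with a coefficient of variation of 71.0%, against 11.7% in the si-Control-labelled libraries. Tnni2 averaged 1.42 ± 1.01 CPM in si-Rbm22 and 7.72 ± 0.902 CPM in the si-Control-labelled libraries (SD, n = 3 each; edgeR log2 fold change −2.44 ± 0.440 SE, adjusted p = 0.0006625). Its log2 fold change was −3.09 without si-Rbm22 replicate 2.

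Of the troponin C genes, Tnnc1, shared by heart and slow muscle (ENSMUSG00000091898; chromosome 14, 31208312 to 31211729, 5 introns, plus strand), had 28974, 29897 and 21757 reads in the si-Rbm22 libraries, against 1090, 1067 and 1194 in the si-Control-labelled libraries. The groups did not overlap. Tnnc1 averaged 734 ± 135 CPM in si-Rbm22 and 31.3 ± 2.71 CPM in the si-Control-labelled libraries (SD, n = 3 each), or 23.4-fold higher (edgeR log2 fold change 4.55 ± 0.151 SE, adjusted p = 5.47e-09). It lies inside the span of Nisch, which runs on the other strand, and shares no exon base with it. Tnnc2, the fast form (ENSMUSG00000017300; chromosome 2, 164777161 to 164779967, 5 introns, minus strand), had 0, 6 and 2 reads in si-Rbm22, against 128, 125 and 181 in the si-Control-labelled libraries. Reads of Tnnc2 were close to nil in every si-Rbm22 library. In edgeR the log2 fold change was −5.74 ± 0.532 SE (adjusted p = 1.86e-07), and the ratio of summed scaled reads was 0.0179, with a 95% counting interval of 0.00770 to 0.0357. Without si-Rbm22 replicate 2, which held 6 of the 8 reads, the log2 fold change was −7.07. The Tnnc2 counts are uncertain, because 592 of its 800 exon bases (74.0%) overlap exons of Ube2c on the other strand and the sources used here do not give the strand setting of the counting. Ube2c, a ubiquitin-conjugating enzyme of mitosis, had 2157, 2043 and 2666 reads in si-Rbm22, against 3118, 2865 and 2783 in the si-Control-labelled libraries.

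The make-up of each subunit did not overlap between the groups. Shares were taken from reads per kilobase of exon within a subunit, which needs no scaling between libraries. Tnnt2 made up 97.8%, 98.4% and 98.3% of troponin T in the si-Rbm22 libraries, against 21.7%, 22.9% and 21.4% in the si-Control-labelled libraries. Tnnt1 held 1.72 ± 0.401% of troponin T in si-Rbm22 and 43.2 ± 1.83% in the si-Control-labelled libraries, and Tnnt3 held 0.112 ± 0.0505% in si-Rbm22 and 34.8 ± 2.10% in the si-Control-labelled libraries (SD, n = 3 each). Tnni3 made up 88.2%, 87.8% and 91.0% of troponin I in si-Rbm22, against 3.46%, 3.23% and 3.09% in the si-Control-labelled libraries. Nearly all the rest of troponin I in si-Rbm22 was the newborn form Tnni1 (10.8 ± 1.63%), whereas the si-Control-labelled libraries had 37.0 ± 2.52% Tnni1 and 59.7 ± 2.36% Tnni2 (SD, n = 3 each). Tnnc1 made up 99.99 ± 0.0131% of troponin C in si-Rbm22 and 85.7 ± 1.87% in the si-Control-labelled libraries (SD, n = 3 each). These troponin C shares divide Tnnc2 reads by all 800 exon bases, 592 of which overlap exons of Ube2c. With the strand setting not given, the Tnnc2 part may be too low or too high. The differences of the means were 76.2, 85.7 and 14.3 percentage points for Tnnt2, Tnni3 and Tnnc1. Each gave p = 0.1 in a two-sided exact permutation test, the smallest that 3 against 3 allows. The troponin T value depends on the length used. The exon union of Tnnt2 is 7752 bases long, against 1200 bases for its longest coding transcript, and with coding transcript lengths the Tnnt2 share was 99.4 ± 0.121% in si-Rbm22 and 50.1 ± 1.08% in the si-Control-labelled libraries (SD, n = 3 each), a difference of 49.3 points.

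**Figure D2:**
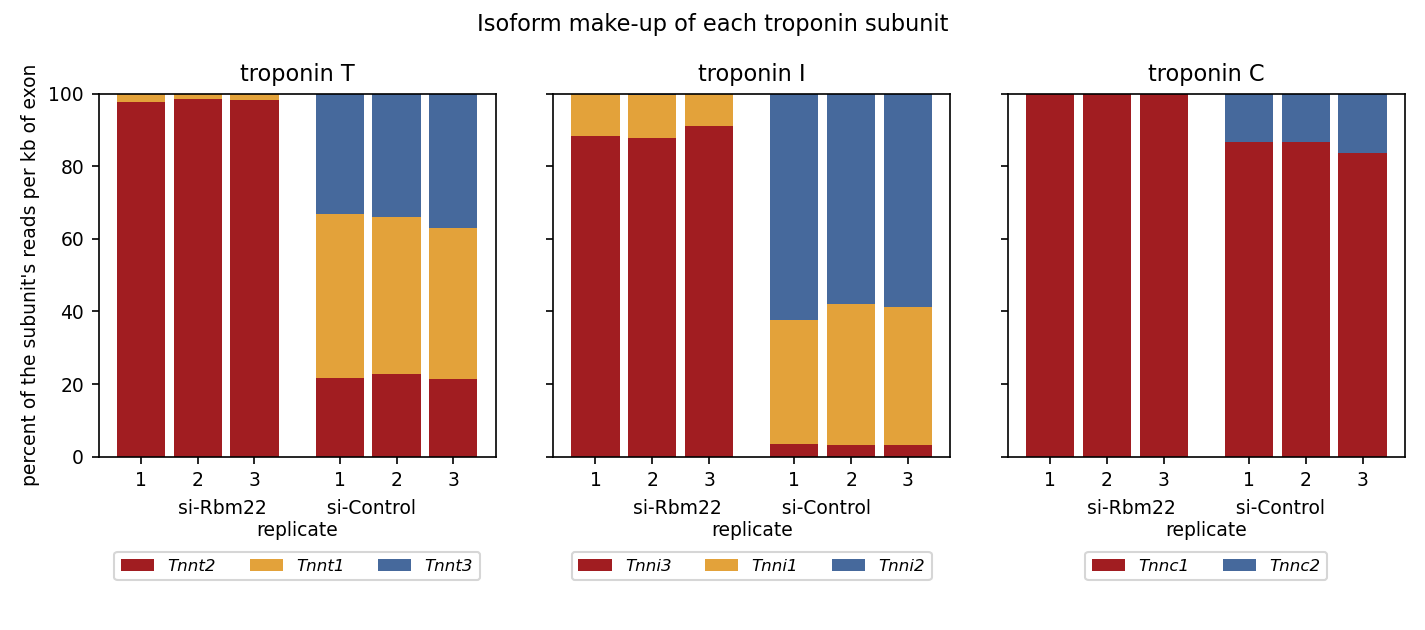
Percent of each subunit's reads per kilobase of exon that fell on each gene, 1 bar per library, si-Rbm22 on the left and si-Control on the right of each panel. Tnnt2, Tnni3 and Tnnc1 (dark red) fill most of the si-Rbm22 bars, while fast genes (blue) and the slow genes Tnnt1 and Tnni1 (yellow) take large parts of the si-Control bars of troponin T and I.

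Ranked by level per kilobase of exon, the si-Rbm22 libraries had Tnnc1 first at 705 ± 130 CPM per kilobase, then Tnnt2 at 584 ± 117 and Tnni3 at 448 ± 41.6 (SD, n = 3 each). Libraries of neighbours in this order overlapped for these 3 genes, so that their order is not settled by the spread. Below them came Tnni1 at 55.2 ± 13.7 and Tnnt1 at 10.2 ± 2.84 CPM per kilobase, each apart from the next. Tnni2 (0.949 ± 0.674) and Tnnt3 (0.680 ± 0.408) overlapped, and Tnnc2 was last at 0.0916 ± 0.106 CPM per kilobase. In the si-Control-labelled libraries the order began with Tnnc1 at 30.1 ± 2.60, Tnnt1 at 10.7 ± 0.374 and Tnnt3 at 8.65 ± 1.18 CPM per kilobase (SD, n = 3 each), which did not overlap. Tnnt2 (5.44 ± 0.368), Tnni2 (5.16 ± 0.603) and Tnnc2 (5.08 ± 1.25) overlapped there, with Tnni1 (3.22 ± 0.575) and then Tnni3 (0.281 ± 0.0230) below them. The place of Tnnc2 is uncertain in both orders, because of its overlap with Ube2c. Tnni3 was thus among the leading 3 genes in si-Rbm22 and last in the si-Control-labelled libraries. With coding transcript lengths Tnnt2 came first in si-Rbm22 (3774 ± 757 CPM per kilobase) and second in the si-Control-labelled libraries (35.2 ± 2.38), where Tnnc1 came first at 43.4 ± 3.76 CPM per kilobase.

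All 8 genes together took 0.642%, 0.728% and 0.527% of the reads in the si-Rbm22 libraries, against 0.0126%, 0.0133% and 0.0149% in the si-Control-labelled libraries. Tnnt2 alone supplied most of these reads in si-Rbm22. The 4 genes of heart and slow muscle that were higher summed to 6384 ± 1170 CPM in si-Rbm22 and 85.7 ± 7.04 CPM in the si-Control-labelled libraries, and the 3 fast genes to 2.57 ± 1.63 CPM in si-Rbm22 and 25.5 ± 3.73 CPM in the si-Control-labelled libraries (SD, n = 3 each). Summed by subunit per kilobase of exon, troponin T, I and C stood at 595 ± 119, 504 ± 55.8 and 705 ± 130 CPM in si-Rbm22, and at 24.8 ± 1.86, 8.65 ± 1.16 and 35.1 ± 3.85 CPM in the si-Control-labelled libraries (SD, n = 3 each). Troponin I was the lowest of the 3 subunits in each of the 6 libraries on this scale. With coding transcript lengths troponin C was the lowest in si-Rbm22, at 1018 ± 187 CPM per kilobase, against 1187 ± 138 for troponin I (SD, n = 3 each), while troponin I stayed lowest in the si-Control-labelled libraries.

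The si-Rbm22 libraries also differed from each other. In Tnnt2, Tnni3, Tnni1 and Tnnc1, replicate 2 was the highest and replicate 3 the lowest, for example 937, 1001 and 831 CPM for Tnni3 and 216, 237 and 143 CPM for Tnni1. The summed cardiomyocyte markers were also lowest in replicate 3, at 35081, 35458 and 22158 CPM. Replicates 1 and 2 were close in this sum, and single markers differed in which of them was higher. Nppa had 2606 CPM in replicate 1 and 4040 CPM in replicate 2. Ttn had 4626 and 3870 CPM there, and Mybpc3 had 2524 and 2293 CPM. Replicate 2 was also the highest of the si-Rbm22 libraries in the fast genes, with 1.81 CPM for Tnnt3, 2.44 CPM for Tnni2 and 0.167 CPM for Tnnc2. Of the 8 genes, only Tnnt1 did not have its highest value in replicate 2 of si-Rbm22, at 28.9, 22.1 and 16.4 CPM. In the si-Control-labelled libraries, replicate 3 was the highest for all 8 genes, for example at 5.21 CPM for Tnnc2, against 3.53 and 3.44 CPM in its other replicates.

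**Figure D3:**
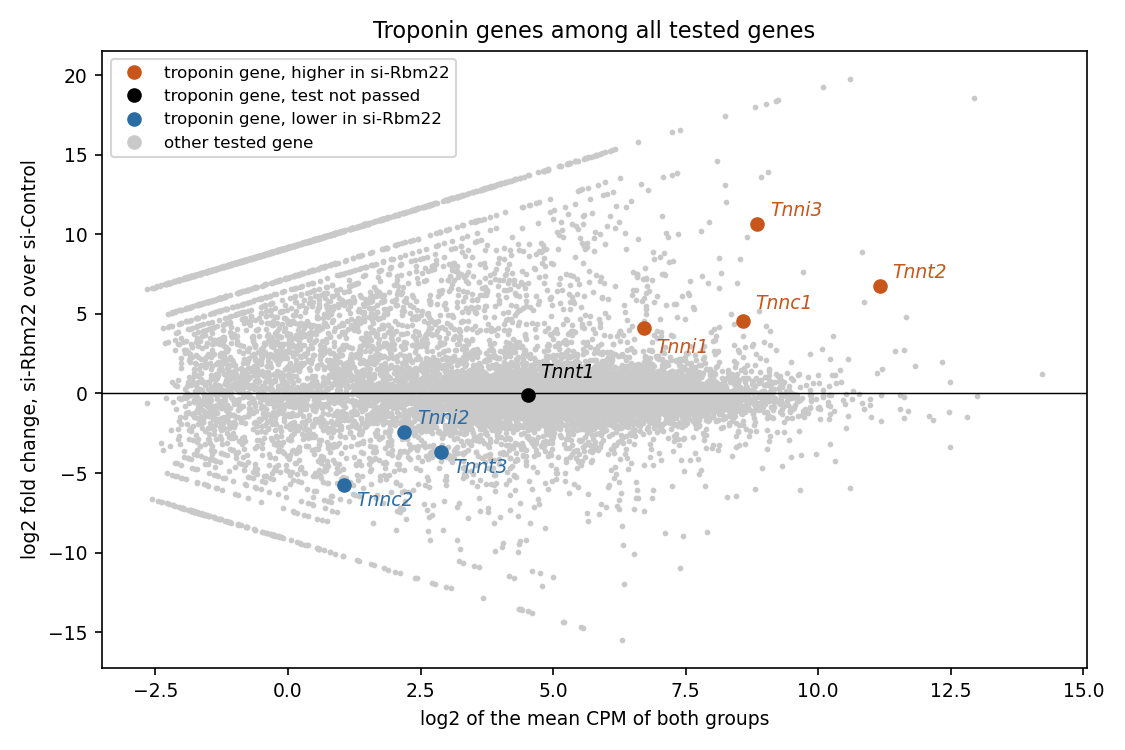
Fold change (log2, si-Rbm22 over si-Control) against mean level (log2 CPM over both groups) for all 14621 tested genes in grey, with the 8 troponin genes coloured by call. The straight grey edges are genes without reads in a group, whose fitted values are no bounds; Tnni3 and Tnnt2 lie among the most abundant genes with a high fold, and Tnnt1 lies at −0.07.

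The members were also placed among all genes that passed the test. Tnni3 was among 256 genes with at least its fitted rise. For Tnnt2 the number was 1048, for Tnnc1 1579 and for Tnni1 1706. Among the falls, 289 genes fell at least as far as Tnnc2, 643 as far as Tnnt3 and 1019 as far as Tnni2. These numbers rest on fitted values and include genes without reads in a group, whose fitted values are no bounds. Hand1, without reads in the si-Control-labelled libraries, is counted above Tnnt2 at a fitted log2 fold change of 7.97. With that group set at 3 counts, Hand1 was at least 30.8-fold higher, against 107-fold for Tnnt2. The median log2 fold change of all tested genes was 0.05.

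Of 27 partners of troponin on the thin filament, its caps and binding proteins included, 18 were higher, 6 lower and 3 did not pass, where 43.1% of all tested genes were higher, 38.9% lower and 82% passed in either direction. The share that passed is thus near that of the whole table. Their median log2 fold change was 0.79, against 0.05 for all tested genes. Actc1, the cardiac actin, stood at 3643 ± 536 CPM in si-Rbm22 and 7.65 ± 0.869 CPM in the si-Control-labelled libraries (SD, n = 3 each; edgeR log2 fold change 8.89 ± 0.151 SE, adjusted p = 1.48e-12). Tpm1, the main tropomyosin of heart muscle, stood at 5462 ± 652 CPM in si-Rbm22 and 836.6 ± 16.1 CPM in the si-Control-labelled libraries (log2 fold change 2.71). Nebl, the nebulin-like protein of the heart, had 24719, 23454 and 18460 reads in si-Rbm22, against 2, 3 and 2 in the si-Control-labelled libraries. Lmod2 and Tmod1, which work at the pointed ends of thin filaments, rose by 5.95 and 4.67 on the log2 scale, and Capza1, a subunit of the capping protein of the other end, by 1.25. Falling members were picked out after their values were seen. The skeletal actin gene Acta1 averaged 23.1 ± 7.15 CPM in si-Rbm22 and 122.9 ± 9.08 CPM in the si-Control-labelled libraries (log2 fold change −2.41, edgeR adjusted p = 9.18e-05), and Tpm2, a tropomyosin of slow skeletal and smooth muscle, had a log2 fold change of −1.35.

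**Figure D4:**
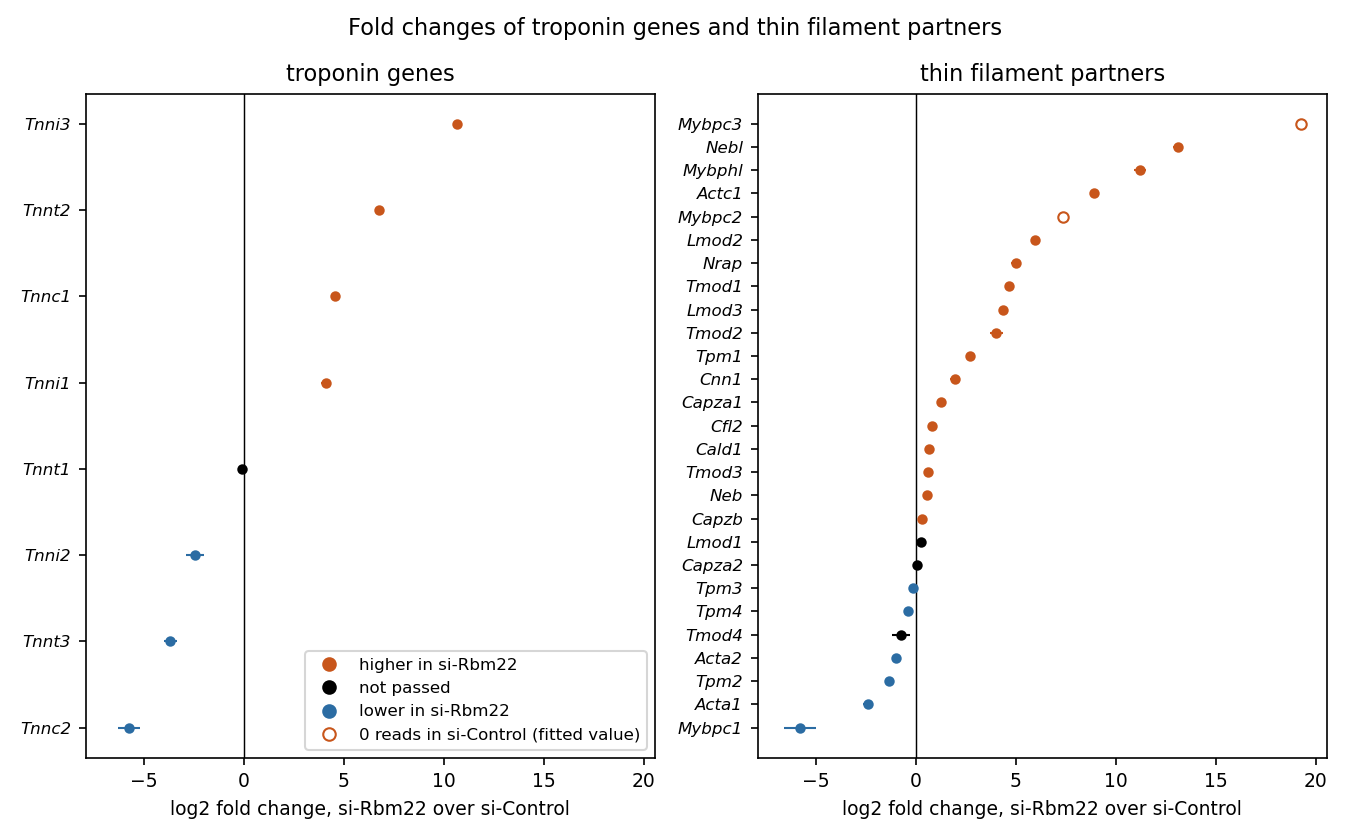
Log2 fold changes (si-Rbm22 over si-Control) with SE bars for the 8 troponin genes on the left and 27 thin filament partners on the right; colours give the edgeR call, and open circles are genes with 0 reads in all 3 si-Control libraries, drawn at a fitted value without SE. Tnni3, Tnnt2, Tnnc1 and Tnni1 lie on the side of Actc1 (8.89) and Tpm1 (2.71), and Tnni2, Tnnt3 and Tnnc2 on the side of Acta1 (−2.41).

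In a list of kinases and phosphatases drawn up for troponin, regulatory subunits included, 12 of 19 were higher, 6 were lower and 1, Pak3, did not pass, against 43.1% higher and 38.9% lower among all tested genes. Whether each listed gene, Stk26 among them, acts on troponin was not examined. The median log2 fold change of this list was 0.33 (0.05 for all tested genes). Tnni3k, a heart kinase named for its binding to cardiac troponin I, had 2383, 2171 and 1727 reads in si-Rbm22 and no reads in the si-Control-labelled libraries, which makes it at least 2042-fold higher. Stk26 had 3934, 3957 and 4420 reads in si-Rbm22 and none in the si-Control-labelled libraries (at least 3992-fold higher). These bounds set the group without reads at 3 counts over its 3 libraries. Prkaca, the catalytic subunit of protein kinase A that phosphorylates cardiac troponin I, averaged 187 ± 20.3 CPM in si-Rbm22 and 491.6 ± 18.1 CPM in the si-Control-labelled libraries (SD, n = 3 each; edgeR log2 fold change −1.40 ± 0.075 SE, adjusted p = 6.48e-10). Prkca, a protein kinase C, had a log2 fold change of −1.32, while Rock1 rose by 1.19 and Prkd1 by 3.11 on the same scale.

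Of 30 regulators of troponin gene transcription 28 were tested, and 17 were higher, 9 lower and 2 did not pass, against 43.1% higher and 38.9% lower among all tested genes. The median log2 fold change of this list was 0.79 (0.05 for all tested genes). Of those with the smallest p, the heart factors Gata6, Tbx20, Mef2c, Gata4 and Tbx5 were higher. The zinc finger factor Gata4 averaged 232 ± 9.83 CPM in si-Rbm22 and 15.5 ± 0.722 CPM in the si-Control-labelled libraries (SD, n = 3 each; log2 fold change 3.91), and Tbx20 had 11258, 9898 and 9471 reads in si-Rbm22, against 10, 6 and 11 in the si-Control-labelled libraries. Chosen after their values were seen, Myod1, the myogenic E-box factor, had no reads in si-Rbm22 and 2776, 2833 and 2279 in the si-Control-labelled libraries (at least 2697-fold lower), and Tead1, which binds M-CAT letters, averaged 557.6 ± 17.4 CPM in si-Rbm22 and 145 ± 5.48 CPM in the si-Control-labelled libraries (log2 fold change 1.94). The other TEAD genes differed in direction: Tead2 was higher (log2 fold change 0.84), Tead3 was lower (−0.30) and Tead4 did not pass (0.20).

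Of 22 regulators of troponin T splicing, 20 were tested, and 13 were higher, 4 lower and 3 did not pass, against 43.1% higher and 38.9% lower among all tested genes. The median was 0.56 on the log2 scale (0.05 for all tested genes), and the share that passed in either direction is near the 82% of the whole table. Rbpms and Rbm24, RNA-binding proteins of heart muscle, stood at 200.3 ± 2.98 and 97.5 ± 9.35 CPM in si-Rbm22, against 8.51 ± 0.505 and 4.61 ± 0.255 CPM in the si-Control-labelled libraries (log2 fold changes 4.56 and 4.40). Rbm20, the splicing factor of titin, rose by 2.16 and Mbnl2 by 1.53 on the log2 scale. Mbnl1 and Rbfox2 fell by 0.79 and 0.73 on that scale. Gene counts do not show which exons of Tnnt2, Tnnt1 or Tnnt3 were joined.

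The troponin genes lie in 3 pairs and as 2 lone genes, and members of a pair did not always move together. Tnni1 and Tnnt2 on chromosome 1 were both higher, and Tnni2 and Tnnt3 on chromosome 7 were both lower. Tnnt1 and Tnni3, also on chromosome 7, differ: Tnni3 rose by 10.63 on the log2 scale, and its neighbour Tnnt1 had a log2 fold change of −0.07. Of 22 nearest protein-coding genes around these 5 loci, 20 were tested, 8 of them higher, 11 lower and 1, Dnaaf3, not passed (Syt5 and Syt8 had too few reads), against 43.1% higher and 38.9% lower among all tested genes. Their median log2 fold change was −0.30 (0.05 for all tested genes). Lad1, between Tnni1 and Tnnt2, had 275, 426 and 194 reads in si-Rbm22, against 5, 0 and 2 in the si-Control-labelled libraries. Pkp1, a plakophilin of desmosomes on the far side of Tnnt2, was lower (edgeR log2 fold change −5.01 ± 0.121 SE, adjusted p = 1.27e-13), as was Igfn1 beyond it (−5.76). Lsp1, between Tnni2 and Tnnt3, was lower too (−1.67), whereas Igf2, the growth factor gene further along, was higher (2.81). Near Tnnc1, Stab1, a scavenger receptor of endothelium and macrophages, rose by 4.55 on the log2 scale and Nisch had −0.26. The other neighbours of Tnnc2 (Dnttip1, Snx21 and Acot8) had log2 fold changes of −0.57, −0.86 and −0.35.

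**Figure D5:**
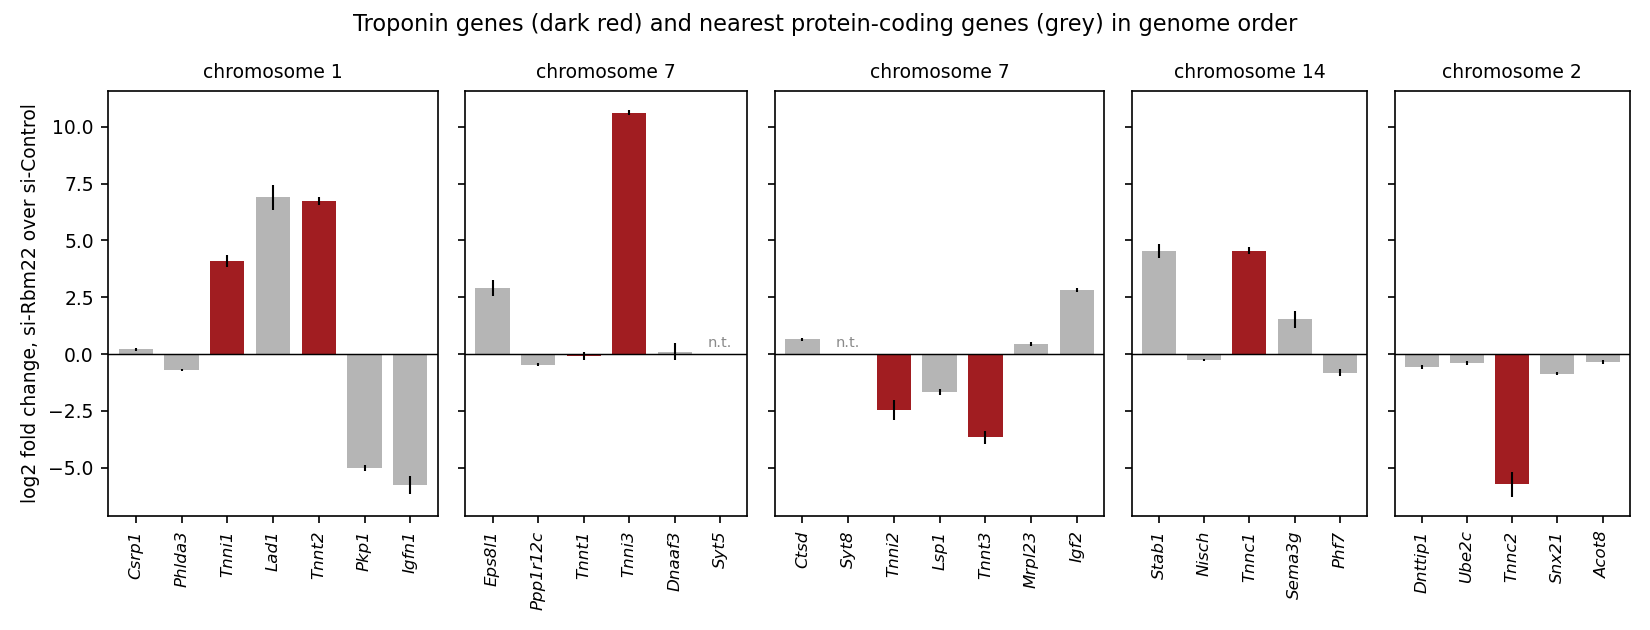
Log2 fold changes (si-Rbm22 over si-Control) with SE bars for the troponin genes (dark red) and their nearest protein-coding genes (grey), in genome order at 5 loci; n.t. marks genes not tested. The pairs Tnni1 with Tnnt2 and Tnni2 with Tnnt3 each point one way, Tnnt1 lies at −0.07 beside Tnni3 at 10.63, and grey bars point both ways.

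For each member, the genes with the most similar profile over the 6 libraries were found by Euclidean distance between mean-centred log2 CPM with a prior count of 2, a measure in which the prior count sets the profile of genes with no reads or only a few in a group. The search covered tested genes averaging 5 CPM or more, and all tested genes for Tnni2 and Tnnc2, which lie below that level. The smallest distances to Tnnt2 were those of Hey2 (0.210) and Ddo (0.379). Hey2 had 479, 496 and 390 reads in si-Rbm22 and 2 in each si-Control-labelled library, as many as the prior count, so its distance depends on that count. Its fitted log2 fold change was 7.71, against 6.75 for Tnnt2. For Tnni3 they were Atp9a (0.227) and the potassium channel gene Kcnj5 (0.262), neither of which had a read in the si-Control-labelled libraries, so that these distances also depend on the prior count. Tnnc1 was nearest to the splicing regulator gene Rbm24 (0.281) and to Ppm1j (0.282), and Tnni1 to Srl (0.350) and Arhgap26 (0.378). For Tnnt1 they were Rap1gap2 (0.254) and Sgca (0.260), which encodes a sarcoglycan of muscle. Tnnt3 was nearest to Dpyd (0.542) and Crabp2 (0.560), Tnni2 to Calcb (0.351) and Slco1a5 (0.703), and Tnnc2 to Mymx (0.849), a fusion gene of skeletal myoblasts with 0, 4 and 0 reads in si-Rbm22, against 66, 102 and 134 in the si-Control-labelled libraries, and to Enho (0.879).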

How the data were processed

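RNA-seq was done on 3 si-Rbm22 and 3 si-Control cultures. The authors deposited raw counts, whole reads for each Ensembl gene and library, without normalization. Per the labels' protocols, TRIzol and the VAHTS Universal V6 RNA-seq kit were used. Per the submitters' processing notes, fastp, HISAT2, HTSeq, DESeq2 and the build GRCm38 were used. The sources used here give no versions, annotation release or strand setting. Of 18951 rows, 18868 had a symbol in GENCODE M21 and 83 had none. No column was left unused. Intervals and floors hold for counting error alone, because no molecular identifiers are described.

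Counts were tested on the whole table with edgeR 4.0.16 in R 4.3.3 (robust quasi-likelihood test with group as the only term, after filterByExpr and TMM scaling), with Benjamini-Hochberg adjustment over 14621 genes and a threshold of 0.05. The SE of a log2 fold change is its size over the square root of the F statistic. The procedure was also run on simulated counts with few changed genes and the same spread set for all genes. That setting is unlike this table, in which 82% of tested genes passed, so the run does not check the error rate here. Replicate pairs differed by more than sampling noise (chi-square per degree of freedom 4.52 to 30.9), so each library is 1 sample. Shares used GENCODE exon unions and an exact permutation test in scipy 1.17.1. Stretches of 31 bases that troponin transcripts share with other genes made up at most 6.27% of a gene's, apart from Tnnc2 with Ube2c (59.0%).

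The members and lists were chosen with earlier results of these data known. Named were all 8 members, Rbm22, up to 6 genes of smallest p per list, the 2 most similar genes per member and the nearest neighbours, and 1 gene so named is left out here. Alternatives were RLE size factors, no filter, at least 10 CPM in 3 libraries, a fit without each library, a replicate block, limma-voom (limma 3.58.1), DESeq2 1.42.0, mitochondrial transcripts left out, a threshold of 0.01, and other gene lengths, of which the coding transcript length was added after the data were seen.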

Additional observations from a re-analysis of the deposited data

How the results depend on the processing

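The count of 4 higher genes was 4 under every alternative run. The count of 3 lower genes was 1 with a filter of 10 CPM in 3 libraries, where Tnni2 and Tnnc2 were left untested, and 3 or 4 when each library was left out in turn. Of 102 log2 fold changes recomputed for single genes, 100 kept their direction and their side of the threshold. The exceptions were both Tnnt1, at −0.31 without si-Rbm22 replicate 1 and at 0.10 without si-Rbm22 replicate 3; over its alternatives the edgeR, DESeq2 and limma adjusted p lay between 0.0322 and 0.871. The replicate numbers gave no clear sign of pairing. Correlations were −0.002 to 0.095 between same-numbered libraries, the highest for replicate 3, and −0.075 to 0.049 between differently numbered ones. With the replicate block 4 genes were higher and 3 lower, and 11945 genes of the table passed. The differences in the shares of Tnnt2, Tnni3 and Tnnc1 kept their direction with every gene length. The cause of the Tnnt2 range, 46.4 to 76.2 points, is the length by which its reads are divided. The median of all tested genes moved to 0.14 without a filter and 0.13 with DESeq2. Depth limits Tnnc2, which had 8 reads in the si-Rbm22 group.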
